A study of Mus musculus with 6 samples.

Results

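The 9 genes described here encode the interferon signalling machinery of the macrophage, from the receptor chains Ifnar1, Ifnar2, Ifngr1 and Ifngr2 through the kinases Jak1, Jak2 and Tyk2 to the transcription factors Stat2 and Irf9. They were taken by symbol from the array's own gene names, without regard to their values, and were represented by 11 of 55681 non-control probes and by 9 of 19575 genes tested. Macrophages were grown for 7 days from the bone marrow of C57BL/6 mice in medium with L929-conditioned supernatant, a source of macrophage colony-stimulating factor. In 1 group (ADP, 3 samples) they were then exposed to 100 µM ADP, a nucleotide that damaged and activated cells release, for 6 h, and in the other (control, 3 samples) they received a 6 h control treatment, whose composition the labels do not give. The RNA of each sample was hybridised to its own single-colour microarray, and the submitters describe the samples of a group as independent experiments on different donors. The comparison asks how exposure to extracellular ADP alters macrophage transcripts.

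Type I interferons bind the receptor formed by IFNAR1 and IFNAR2, to which the kinases TYK2 and JAK1 are attached. Interferon-gamma binds the receptor formed by IFNGR1 and IFNGR2, which carries JAK1 and JAK2. The type I receptor leads to ISGF3, a complex that holds STAT2 and IRF9 and binds interferon-stimulated response elements (ISRE), and signals of the interferon-gamma receptor act on gamma-activated sites (GAS). Macrophages both make and answer interferons, and a low tonic signal through the type I receptor is known to maintain the transcripts of pathway members such as Stat2 and Irf9.

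Each of these transcripts differed by less than 2-fold with ADP, and 8 of the 9 read lower. Stat2 and Ifngr1 read about 22% lower on the ADP arrays, at -22.2% and -22.4%, and Tyk2 and Ifngr2 read lower by smaller margins relative to their spread. Jak2 was the only one of the 9 to read higher, while Ifnar2, Jak1 and Irf9 differed by -0.026, -0.066 and -0.10 log2. No difference passed the test across all genes without a block. Of 19575 genes, limma called 0 (0%, Benjamini-Hochberg adjusted p under 0.05), while 2492 (12.7%) had an unadjusted p under 0.05.

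Levels are log2 signals over the 75th percentile of the array, differences are ADP minus control on that scale, and adjusted p-values run over all 19575 genes. A lower level can reflect fewer cells of a type or less RNA per cell, which cannot be told apart in RNA from whole cultures. Each array had 50.3% to 51.9% of its 59305 non-control spots well above background and no saturated spot. The 6 arrays lay on 2 slides, with ADP 1 and controls 1 and 2 on slide 1, and ADP 2 and 3 and control 3 on slide 2. The first principal component (44.9% of the variance) separated the slides and the second (31.2%) the treatments, so slide-blocked and within-slide values stand beside the pooled ones. All 8 macrophage markers were well above background on all 6 arrays, and their summed signal, in multiples of the 75th percentile, was 1177 to 1605 on ADP and 974 to 1331 on control arrays. Among 9 lists of markers of other cell types, the summed signal did not overlap between the groups for B cells and endothelial cells. For B cells (4 markers) it was 4.75 to 5.18 on ADP arrays and 5.43 to 7.91 on control arrays. Only 1 of these 4 was well above background on all 6 arrays, and Ms4a1 was on none. The 2 B cell markers tested had a median difference of 0.021. Of these, Cd79a was well above background on 3 ADP and 2 control arrays, so only the ADP group kept it in the test. This median therefore does not show whether the B cell markers shared a decrease. For endothelial cells it was 0.482 to 0.552 on ADP arrays and 0.380 to 0.461 on control arrays, with Tek not above background on any array. The 2 endothelial markers tested had a median difference of 0.28, and the 8 macrophage markers also had one of 0.28. The part of the cell types present in the differences below was not tested.

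**Figure D1:**
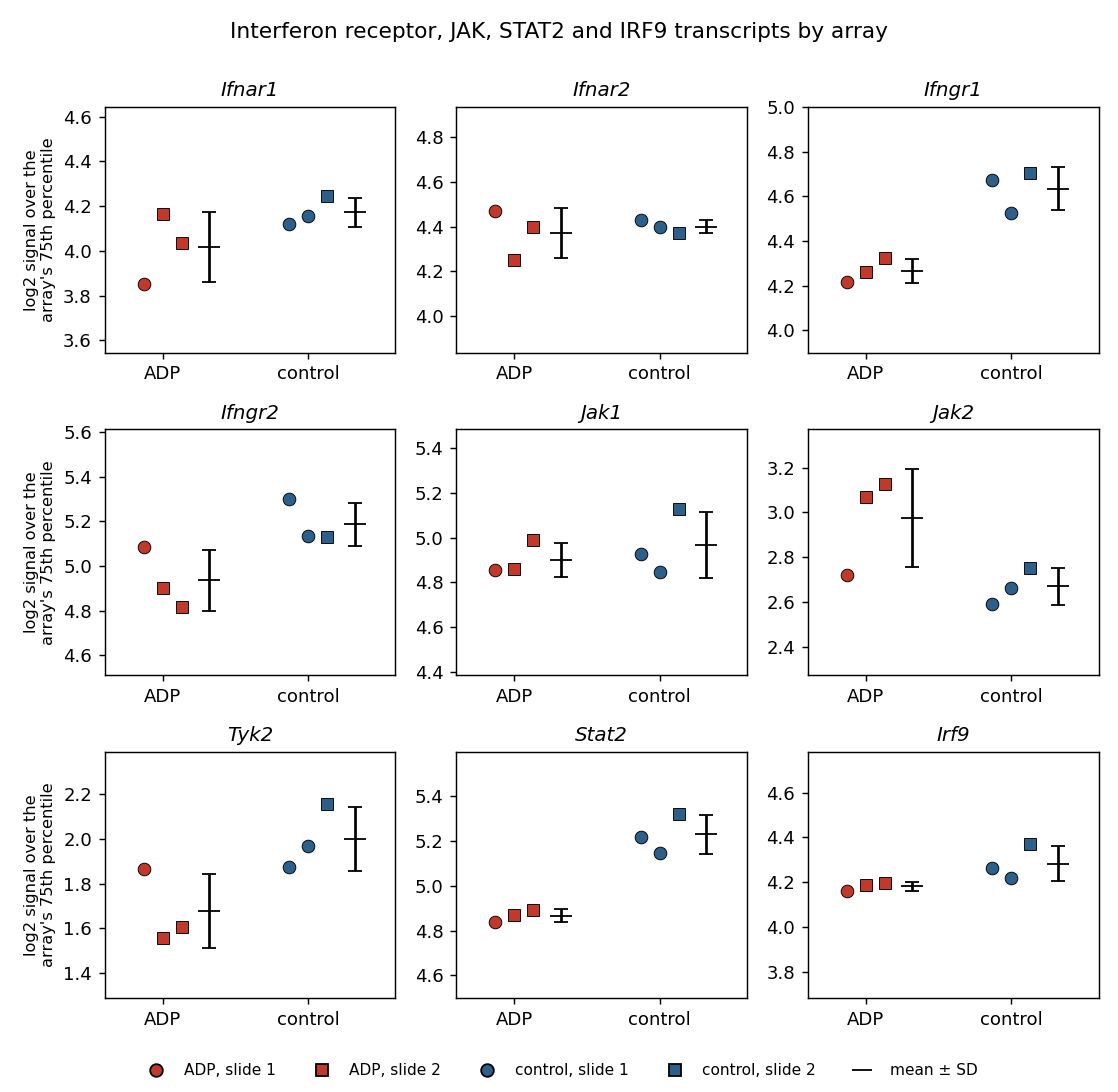
Level of each transcript on every array, as log2 signal over the array's 75th percentile (all panels span the same range), with ADP arrays at the left and control arrays at the right of each panel, circles for slide 1 and squares for slide 2, and the mean ± SD of 3 arrays beside them. Stat2 and Ifngr1 show the widest gaps between the groups, and for Jak2 and Tyk2 the ADP array of slide 1 lies apart from the other 2 ADP arrays.

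The chains of the type I interferon receptor were close to control. Ifnar1 encodes the chain that binds TYK2. Its brightest probe (mouse build mm9, chr16:91510673-91510732) read 3.85, 4.16 and 4.04 on ADP arrays 1 to 3, against 4.12, 4.16 and 4.24 on control arrays 1 to 3. The groups overlapped, and ADP 1 was the low array. The difference was -0.16 ± 0.12 (log2, SE, n = 3 arrays per group, adjusted p = 0.668, limma), with a 95% interval of -0.44 to 0.13. A slide block made it -0.22 ± 0.083 (adjusted p = 0.192). Within slides 1 and 2 it was -0.29 and -0.14. The other 2 Ifnar1 probes were dimmer but well above background on all 6 arrays. They differed by -0.10 ± 0.10 (chr16:91506635-91506693) and -0.033 ± 0.14 (chr16:91503764-91505350), so all 3 Ifnar1 probes read lower with ADP and none passed (adjusted p = 0.680, 0.749 and 0.942 over 26587 probes).

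Ifnar2, whose product binds JAK1 and comes in membrane and soluble forms, had the smallest difference of the 9. Its probe (chr16:91394044-91394103) read 4.47, 4.25 and 4.40 on ADP arrays and 4.43, 4.40 and 4.37 on control arrays. The ADP values lay on both sides of the control values. The difference was -0.026 ± 0.10 (log2, SE, adjusted p = 0.938), with a 95% interval of -0.28 to 0.22. Its sign turned with the slide, at 0.057 within slide 1 and -0.047 within slide 2.

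The chains of the interferon-gamma receptor both read lower, and their groups did not overlap. Ifngr1, the ligand-binding chain (chr10:19329923-19329982), had processed signals of 8463, 10438 and 11007 on ADP arrays 1 to 3 and 11623, 10682 and 14282 on control arrays 1 to 3. After scaling to each array it read 4.22, 4.26 and 4.32 on ADP arrays, against 4.67, 4.52 and 4.70 on control arrays. Every ADP array was below every control array. The means were 4.27 ± 0.054 with ADP and 4.63 ± 0.096 in controls (SD, n = 3 each). The difference of -0.37 ± 0.10 (log2, SE) is a level 0.776 times that of controls, with a 95% interval of -0.61 to -0.12 (unadjusted p = 0.0104, adjusted p = 0.279, limma). It was nearly the same on both slides, at -0.38 within slide 1 and -0.41 within slide 2.

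Ifngr2, the signalling chain that carries JAK2 (chr16:91563982-91564041), read 5.09, 4.90 and 4.82 on ADP arrays and 5.30, 5.13 and 5.13 on control arrays. The highest ADP array lay just under the lowest control array. The difference was -0.25 ± 0.12 (log2, SE, adjusted p = 0.454), and a slide block made it -0.20 ± 0.089 (adjusted p = 0.249). It was -0.13 within slide 1 and -0.27 within slide 2.

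Ifnar2, Ifnar1 and Ifngr2 lie beside each other on chromosome 16, together with Il10rb, which encodes a chain of the interleukin-10 and interferon-lambda receptors. Their 6 probes spanned 170.0 kb (mm9, chr16:91394044-91564041). Il10rb (chr16:91425744-91425803), chosen after its values were seen, read 4.24, 4.37 and 4.45 on ADP arrays and 4.37, 4.16 and 4.70 on control arrays. The groups overlapped, with a difference of -0.054 ± 0.16 (log2, SE, adjusted p = 0.914). None of the 4 neighbouring genes passed the test, and Ifngr2 was the only one of them whose groups did not overlap.

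The Janus kinases differed in direction. Jak1, which serves both receptors (chr4:100825094-100825153), read 4.86, 4.86 and 4.99 on ADP arrays and 4.93, 4.85 and 5.13 on control arrays. The groups overlapped and the difference was -0.066 ± 0.12 (log2, SE, adjusted p = 0.853), with a 95% interval of -0.35 to 0.21. Within slides 1 and 2 it was -0.030 and -0.21.

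Jak2, the kinase of the interferon-gamma receptor and of receptors for growth factors such as granulocyte-macrophage colony-stimulating factor (chr19:29387487-29387546), read 2.72, 3.07 and 3.13 on ADP arrays and 2.59, 2.66 and 2.75 on control arrays. ADP 2 and 3 lay above all controls, and ADP 1 lay among them. The means were 2.97 ± 0.22 and 2.67 ± 0.082 (SD, n = 3 each), a difference of 0.31 ± 0.14 (log2, SE, adjusted p = 0.440) and a ratio of 1.24. Blocking on the slide gave 0.22 ± 0.091 (adjusted p = 0.215). The value was 0.095 on slide 1 and 0.35 on slide 2.

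Tyk2, the kinase of the type I receptor (chr9:20909321-20909380), read 1.87, 1.56 and 1.61 on ADP arrays and 1.88, 1.97 and 2.16 on control arrays. ADP 2 and 3 were well below the controls, while ADP 1 lay just under the lowest of them. The difference was -0.32 ± 0.13 (log2, SE, unadjusted p = 0.0493, adjusted p = 0.390). It was unequal between the slides, at -0.055 within slide 1 and -0.58 within slide 2, and it was -0.42 without ADP 1. The difference between the slides was not tested.

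**Figure D2:**
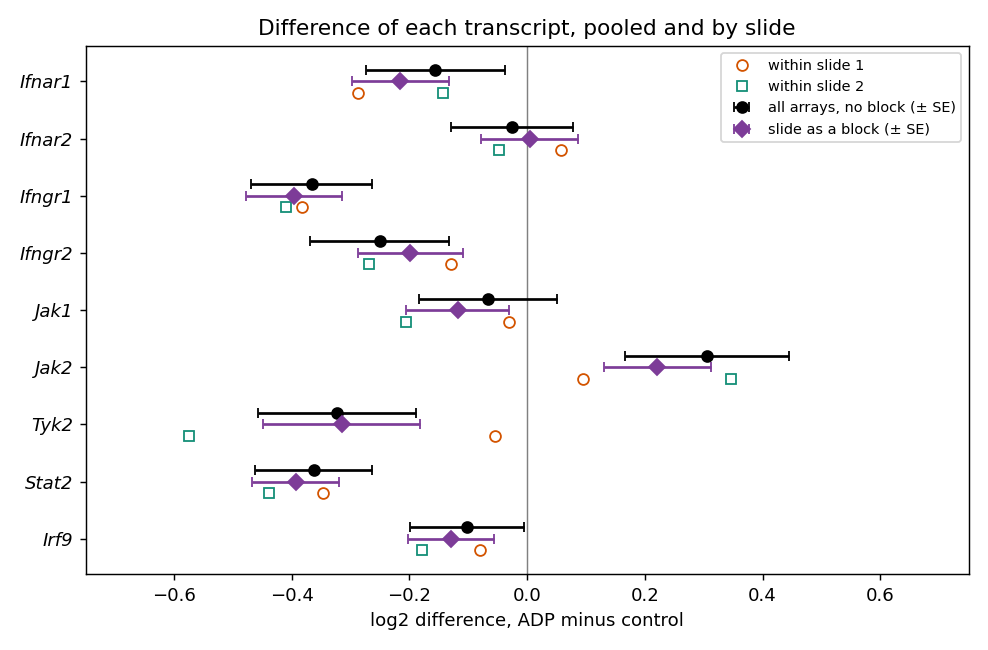
Log2 difference, ADP minus control, of each transcript on all arrays without a block (circles, ± SE) and with the slide as a block (diamonds, ± SE), with the differences within slide 1 (open circles) and slide 2 (open squares). Stat2 and Ifngr1 were lower by a like amount within both slides, whereas Tyk2 was -0.055 within slide 1 and -0.58 within slide 2.

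The transcription factors of ISGF3 read lower to unequal degrees. Stat2 encodes the subunit that supplies the strong activation domain (chr10:127729834-127729893). Its processed signals were 12999, 15950 and 16319 on ADP arrays 1 to 3, against 16970, 16450 and 21938 on control arrays 1 to 3. The scaled levels were 4.84, 4.87 and 4.89 on ADP arrays and 5.22, 5.15 and 5.32 on control arrays. The lowest control array lay above the highest ADP array by several times the spread among the ADP arrays. The means were 4.87 ± 0.029 with ADP and 5.23 ± 0.088 in controls (SD, n = 3 each), a ratio of 0.778. The difference of -0.36 ± 0.099 (log2, SE) had a 95% interval of -0.60 to -0.12 (unadjusted p = 0.00925, adjusted p = 0.273, limma). It was -0.35 within slide 1 and -0.44 within slide 2.

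Irf9, the DNA-binding subunit of ISGF3 (chr14:56228806-56228865), read 4.16, 4.19 and 4.20 on ADP arrays and 4.26, 4.22 and 4.37 on control arrays. The groups did not overlap, but the gap between them was narrow. The difference was -0.10 ± 0.097 (log2, SE, adjusted p = 0.734), with -0.080 on slide 1 and -0.18 on slide 2. It was -0.058 when control 3 was left out. With the unscaled signals it was -0.025.

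The promoters of Stat2 and Ifngr1, the transcripts with the largest differences below 0, are shown to compare what lies upstream of a pair that differed by a like amount. RefSeq (GRCm38.p6) gave 10 promoters for all 9 genes, and the 250 bases before each annotated start were searched on both strands for an ISRE core (TTTC, any 2 bases, TTTC, or its reverse, GAAA, any 2 bases, GAAA) and for a GAS core (TTCNNNGAA, the same on both strands). Stat2 lies at chr10:128270248-128270497 and Ifngr1 at chr10:19591699-19591948, both on the plus strand, with matches in capitals.
Stat2: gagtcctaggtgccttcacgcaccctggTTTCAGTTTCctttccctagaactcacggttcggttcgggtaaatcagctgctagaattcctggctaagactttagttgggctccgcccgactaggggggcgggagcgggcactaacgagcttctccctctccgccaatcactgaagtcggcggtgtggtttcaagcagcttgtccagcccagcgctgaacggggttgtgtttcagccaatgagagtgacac
Ifngr1: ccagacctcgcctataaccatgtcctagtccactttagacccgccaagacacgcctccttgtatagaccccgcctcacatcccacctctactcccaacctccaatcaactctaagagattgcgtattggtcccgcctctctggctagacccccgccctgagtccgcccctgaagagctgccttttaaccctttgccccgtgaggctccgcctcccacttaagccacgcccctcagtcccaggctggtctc
The Stat2 window held the only ISRE core among the 10 promoters, TTTCAGTTTC, beginning 222 bases before the start. That core was present in 2.98% of 32851 promoter windows of the same length. The Ifngr1 window held neither core. The only GAS core was in the Ifnar2 window (TTCCTGGAA, beginning 214 bases before the start), against 7.02% of all windows. These letters describe the sequence and do not show that a factor binds there.

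Of the 9 genes, 8 differed by less than 0, where 49.2% of all genes did, and the median was -0.16 against 0.0044 over all genes. Groups did not overlap for 5 of the 9 (Ifngr1, Ifngr2, Tyk2, Stat2 and Irf9), all lower with ADP, where 19.4% of all genes did not overlap (9.72% lower and 9.67% higher with ADP). An unadjusted p under 0.05 was reached by 3 (Stat2, Ifngr1 and Tyk2), all lower, where 6.18% of all genes were lower and 6.55% higher at that level. Within both slides 7 of the 9 were lower (all but Ifnar2 and Jak2), where 32.4% of all genes were. None reached a 2-fold difference. By unadjusted p, Stat2 ranked 660 and Ifngr1 ranked 730 among the 19575 genes, so many genes outside the pathway differed as clearly.

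With a slide block limma again called 0% of all genes at an adjusted p under 0.05 (4759 at an unadjusted p under 0.05, or 24.3%). Stat2 differed by -0.39 ± 0.074 (adjusted p = 0.0734) and Ifngr1 by -0.40 ± 0.081 (adjusted p = 0.0767). At an unadjusted p under 0.05 the blocked fit had 3 of the 9, Stat2, Ifngr1 and Ifnar1, all lower, where 13.6% of all genes were lower. Of the settings run, the slide block with intensity-trended, robust variances was the only one in which any of the 9 passed. There Stat2 and Ifngr1 were called lower (adjusted p = 0.0210 each), 2 of 9, where 5.38% of all genes were called lower and 9.91% in either direction. Tyk2 (adjusted p = 0.137), Jak2 (0.138), Ifngr2 (0.134) and Ifnar1 (0.103) did not pass in that fit.

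Stat2 and Ifngr1 also followed each other from array to array, with r = 0.988 over the 6 arrays. Such a value describes 6 points that share treatment and slide, and of 12521 named genes 524 correlated with Stat2 and 391 with Ifngr1 above 0.9. The named genes most like Stat2 were Zfp704 (r = 0.999), Agk (r = 0.993) and Prkag2 (r = 0.993), and those most like Ifngr1 were Zdhhc14 (r = 0.994), Zfp704 (r = 0.990) and Stat2 itself. Zfp704 read -0.47, -0.40 and -0.38 on ADP arrays and 0.046, -0.042 and 0.15 on control arrays, with every ADP array lower. It was picked for its likeness to Stat2 over these same arrays, so its separation of the groups largely follows from that choice. Jak2 ran opposite to Ifngr2 (r = -0.966). That was the lowest value among all pairs of the 9 genes, and that of Stat2 and Ifngr1 was the highest. How many other genes ran as opposite to Ifngr2 was not counted. The interferon-gamma receptor chains correlated at r = 0.708.

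The rest of the pathway was read from lists written around the 9 genes, and no listed gene passed the test without a block. For comparison with the counts below, 49.2% of all genes differed by less than 0, and the slide block with trended, robust variances called 4.52% of all genes higher and 5.38% lower. Of 6 other JAKs and STATs, Stat4, which interleukin-12 and type I interferon can activate, read 1.93, 1.26 and 1.76 on ADP arrays and 1.02, 1.08 and 0.61 on control arrays. Every ADP array was above every control array, with a difference of 0.74 ± 0.21 (log2, SE, adjusted p = 0.284) and 0.88 and 0.89 within slides 1 and 2. Stat5a, a STAT of growth factor receptors, went the other way, at 0.98, 1.00 and 0.81 on ADP arrays and 1.30, 1.29 and 1.33 on control arrays. The difference was -0.38 ± 0.10 (adjusted p = 0.273). The slide block with trended, robust variances called Stat4 higher (adjusted p = 0.0210) and Stat5a lower (adjusted p = 0.0389).

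Among the other interferon regulatory factors, 6 of 7 measured genes differed by less than 0. Irf1, a transcription factor that interferon-gamma induces, read 3.80, 4.10 and 3.95 on ADP arrays and 4.22, 4.22 and 4.68 on control arrays, a difference of -0.42 ± 0.16 (log2, SE, adjusted p = 0.369). Irf7, which ISGF3 induces and which amplifies interferon production, was the exception, at 3.82, 3.68 and 3.66 on ADP arrays and 3.42, 3.44 and 3.52 on control arrays. Its difference of 0.26 ± 0.10 (adjusted p = 0.369) was opposite in sign to that of Stat2, and both genes kept their groups apart. Of the 7 factors, the slide block with trended, robust variances called Irf1 lower (-0.53, adjusted p = 0.0210) and none higher, with Irf7 at an adjusted p of 0.0667.

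Transcripts of the interferons themselves were dim. Of 21 listed ligands 17 had a probe and 9 were tested, with none at an unadjusted p under 0.05. No array read the probe of Ifng well above background. Ifna5 differed by 0.30 ± 0.19 and Ifnab by -0.21 ± 0.15 (log2, SE, adjusted p = 0.594 and 0.637). Interferon-alpha genes are near-identical copies, so a probe may read several of them.

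Of 21 inhibitors of the pathway, 13 differed by more than 0, with a median of 0.076. With 1 array left out it ranged from 0.037 (without ADP 3) to 0.12 (without control 2). It was 0.038 with the mean of a gene's probes and 0.15 with unscaled signals. The largest gaps by p were those of Socs4, a suppressor of cytokine signalling (0.44 ± 0.12, adjusted p = 0.273), and Pias4, a SUMO ligase that restrains STATs (0.38 ± 0.14, adjusted p = 0.336), both log2 with SE and both higher on all ADP arrays. Usp18, which binds IFNAR2 and damps the type I receptor, and Socs1, which blocks JAKs, were named after their values were seen. They differed by -0.29 ± 0.28 (adjusted p = 0.736) and -0.18 ± 0.17 (adjusted p = 0.736). With the slide as a block and trended, robust variances 1 listed inhibitor, Socs4, was called higher and 3, Usp18 (adjusted p = 0.0215), Ptpn6 and Sh2b3, were called lower, out of 21, where 4.52% and 5.38% of all genes were.

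Receptor chains of other cytokines that use the same kinases had a median of 0.017 over 25 measured genes, 14 of them above 0, and leaving out 1 array moved that median between -0.020 (without control 2) and 0.092 (without control 3). Those with the smallest p were Il7r, the interleukin-7 receptor chain (0.34 ± 0.13, adjusted p = 0.367), and Csf2rb, the chain shared by granulocyte-macrophage colony-stimulating factor and interleukin-3, which works with JAK2 (0.28 ± 0.11, adjusted p = 0.385), both log2 with SE. The slide block with trended, robust variances called 4 of the 25 higher and 0 lower, where 4.52% and 5.38% of all genes were. They were Il7r (adjusted p = 0.0278), Csf2rb (0.0415) and, named after their values were seen, Osmr and Il15ra. Osmr is the oncostatin M receptor chain (blocked difference 1.29, adjusted p = 0.0221), and Il15ra the interleukin-15 receptor alpha chain (0.85, adjusted p = 0.0210). Without a block Osmr differed by 0.89 ± 0.49 (log2, SE, adjusted p = 0.537, limma) and Il15ra by 0.61 ± 0.32 (adjusted p = 0.507). Osmr was well above background on 3 ADP and 2 control arrays, so only the ADP group kept it in the test.

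Target genes of ISGF3 lay mostly below 0. Of 33 ISGF3 targets, 24 differed by less than 0 (median -0.16, and -0.25 with the slide as a block), where 49.2% of all genes did. At an unadjusted p under 0.05, 6 were lower and 0 higher, where 6.18% of all genes were lower and 6.55% higher. The median moved to -0.060 without control 3 and to -0.087 without ADP 1. Mx1, an antiviral GTPase, differed by -0.80 ± 0.21, and Ifi203 by -0.61 ± 0.15 (log2, SE, adjusted p = 0.268 and 0.261). Sensors that start interferon production had a median of -0.12 over 14 genes, 10 of them below 0. With 1 array left out that median ranged from -0.18 (without control 2) to -0.11 (without ADP 2). It was -0.18 with the slide as a block, -0.055 with the mean of a gene's probes and -0.042 with unscaled signals. Over all genes the median was 0.0043 with the mean of probes and 0.082 with unscaled signals. By unadjusted p without a block the first were Ddx58, which encodes RIG-I (-0.34 ± 0.14, adjusted p = 0.380), and Ifih1, which encodes MDA5 (-0.28 ± 0.13, adjusted p = 0.432). With the slide as a block and trended, robust variances 12 of the 33 ISGF3 targets were called lower and 1 higher, where 5.38% and 4.52% of all genes were. That fit also called 3 of the 14 sensors lower and 0 higher. These were Ddx58 (adjusted p = 0.0257) and, named after their values were seen, Sting1, the adaptor of cytosolic DNA sensing (blocked difference -0.52, adjusted p = 0.0215), and Cgas, the DNA sensor upstream of it (-0.43, adjusted p = 0.0260).

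**Figure D3:**
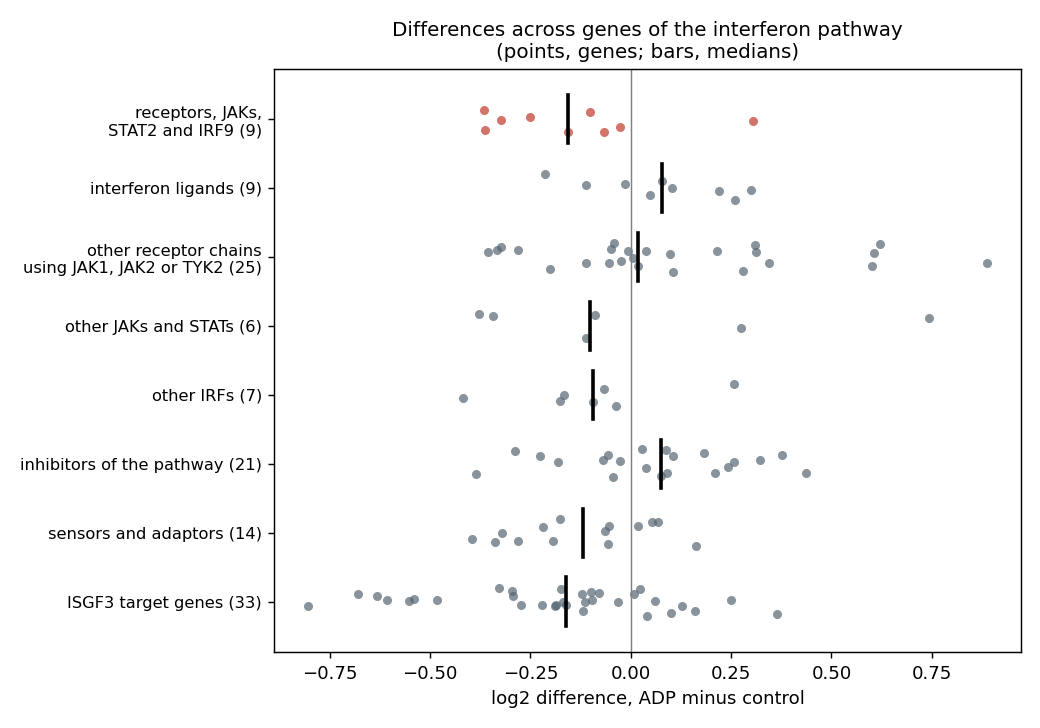
Log2 difference, ADP minus control, of each gene (points) by its place in the pathway, with the median of each row as a bar and the number of genes tested in brackets. The rows of the 9 receptor, kinase and factor genes (median -0.16) and of the targets of ISGF3 (-0.16) lie mostly below 0, and the row of inhibitors (0.076) does not.

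**Figure D4:**
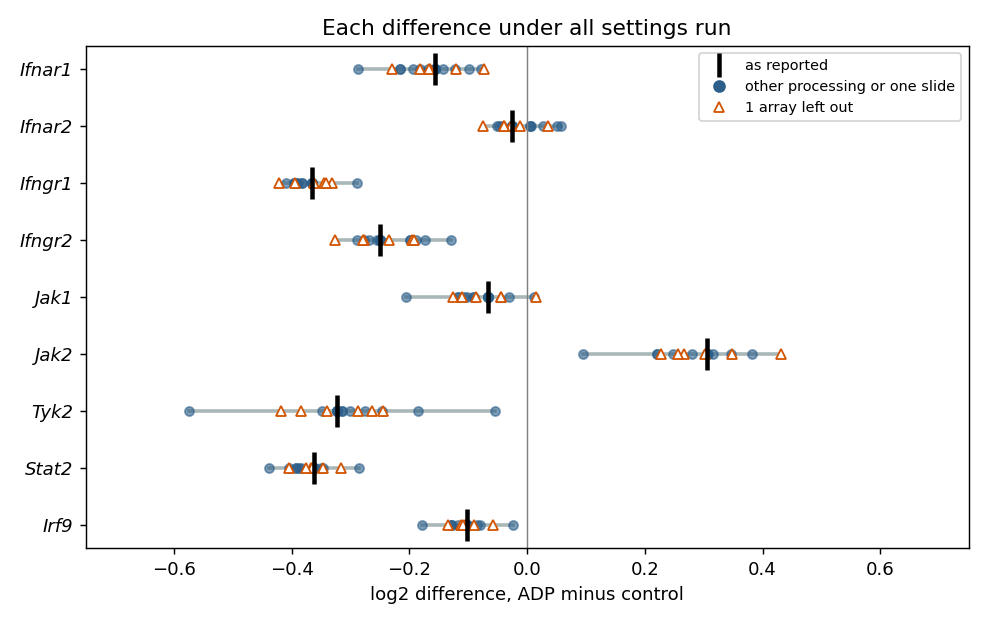
Log2 difference, ADP minus control, of each transcript as reported (vertical bar), under other processing or within 1 slide (filled circles) and with 1 array left out (triangles), with a line over the whole range. Stat2 stays between -0.44 and -0.29 and Ifngr1 between -0.42 and -0.29, and Ifnar2 and Jak1 fall on both sides of 0.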

How the data were processed

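RNA of 6 macrophage samples was measured on single-colour Agilent arrays, 1 per sample, grouped and numbered by title. The authors' files give spot intensity from Agilent Feature Extraction 10.7.1.1, per the file headers, which subtracts background and corrects spatial trends within an array, on a design placed on mouse build mm9, and these values are not scaled between arrays. The deposited flags of 0 or 1 mark spots well above background, saturated or outlying. The deposited value table held the same signal, within 0.001 log2 for 100% of 55681 probes, with linear scale and medians of 20.7, 21.9 and 22.7 for ADP 1 to 3 and 18.6, 20.3 and 22.0 for controls 1 to 3.

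Here, control and outlier spots were left out, spots of a probe averaged, and log2 signals taken relative to each array's 75th percentile. A probe was kept if 1 group or both had it well above background on each of 3 arrays, and a gene was read by its probe of highest mean. Names came from the array, updated through RefSeq (GRCm38.p6) by accession for 26576 probes, current symbol for 2607 and synonym for 492, while 26006 kept the file's name. Groups were compared without a block by limma 3.58.1 (R 4.3.3, two-sided), adjusted by Benjamini-Hochberg over all genes at a threshold of 0.05. The fit was run on simulated data whose planted differences were larger than those of the 9 genes. That run does not show how the fit performs on differences of their size. The number of arrays limits the precision, and a permutation test of 3 against 3 arrays cannot go below 0.1. The labels do not tie a replicate number to a donor, so p-values measure the spread between these samples. The genes, lists and alternatives were chosen with earlier results of these data known, and some listed genes and 1 list are not reported here. Named genes were the 9 genes, the 2 with the smallest p of each list and the 3 most correlated with Stat2 and with Ifngr1. Il10rb, Socs1, Usp18, Ptpn6, Sh2b3, Osmr, Il15ra, Sting1, Cgas and Ifng lie outside this rule and were named after their values were seen. Alternatives were the slide as a block (alone, with quantile normalization, or with trended, robust variances), values within slides, a replicate block, normexp with an offset of 50, quantile or median scaling, unscaled signals, other filters and probe rules, and leaving out each array.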

Additional observations from a re-analysis of the deposited data

How the results depend on the processing

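Stat2, Ifngr1, Ifngr2, Ifnar1, Irf9, Tyk2 and Jak2 kept their direction under all 21 alternatives run for each. Some of these repeat a difference and so do not test its direction. The replicate block, other filters, single probes and trended, robust variances without a block left the reported differences unchanged. The mean of a gene's probes did so too, except for Ifnar1. The slide block with trended, robust variances gave the same differences as the slide block alone. Ifnar2 turned from -0.026 to 0.0047 with the slide as a block (also with trended, robust variances), 0.027 with that block and quantile normalization, 0.0063 with normexp correction, 0.051 in the unscaled value table and 0.057 within slide 1. Jak1 turned to 0.011 in the unscaled table, whose median over all genes was 0.082. Leaving out 1 array moved Ifnar2 between -0.074 and 0.035 (above 0 without ADP 2), Jak1 between -0.13 and 0.015 (above 0 without control 3), Ifnar1 between -0.23 and -0.072 (nearest 0 without ADP 1), Irf9 between -0.14 and -0.058 (nearest 0 without control 3), Stat2 between -0.40 and -0.32 and Ifngr1 between -0.42 and -0.33. The slide block with trended, robust variances called 1939 genes, with Stat2 at -0.39 (adjusted p = 0.0210) and Ifngr1 at -0.40 (0.0210), and over the alternatives their adjusted p ranged from 0.0210 to 0.834 and 0.0210 to 0.832. Within slide 1 the differences were -0.29 for Ifnar1, -0.13 for Ifngr2, 0.095 for Jak2 and -0.055 for Tyk2, and within slide 2 they were -0.21 for Jak1, -0.58 for Tyk2, -0.44 for Stat2 and -0.18 for Irf9. Genes at an unadjusted p under 0.05 numbered 2492 (1282 higher, 1210 lower), 4759 with the slide block, 5111 with it and trended, robust variances, 4881 with it and quantile normalization, and 1554 in the unscaled table (1228 higher, 326 lower), and 1163 (without ADP 3) to 2982 with 1 array left out (1381 without control 1). The causes were not tested.

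Deviations of same-numbered samples from their group means correlated at 0.423, -0.398 and 0.431 for replicates 1, 2 and 3. The samples of replicates 1 and 3 shared a slide and those of replicate 2 did not. Slide was not removed from the deviations, so these values cannot tell whether replicate numbers mark a pairing. With the replicate block 0 genes were called, as without it, 2494 had an unadjusted p under 0.05, and Stat2 differed by -0.36 (adjusted p = 0.374). All 11 probes were well above background on all 6 arrays, so signal over background does not limit them.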
